A study of Homo sapiens with 10 samples.

Results

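The genes described here code for proteins that make and load MHC class I molecules: the heavy chains HLA-B, HLA-C, HLA-E and HLA-F, the light chain B2M, the peptide transporter subunits TAP1 and TAP2, the loading chaperone TAPBP and the immunoproteasome subunit PSMB9. They were taken as a fixed list of 9 gene symbols, with no measured value used in the rule, and all 9 have a row among the 12373 genes of the count matrix. The cells are Kuramochi, a human epithelial line from an ovarian carcinoma that carries a BRCA2 mutation, as do all populations below. The 10 populations are untreated cells (C) and cells kept in the PARP inhibitor olaparib at 1, 2.5, 5, 10, 20, 40, 80, 160 or 320 µM until they were confluent (T1, T2.5, T5, T10, T20, T40, T80, T160 and T320). They form 1 dose escalation with 1 droplet library (inDrop, a method that barcodes single cells) each, so every difference between populations is also a difference between libraries.

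MHC class I molecules carry short peptides from inside the cell to its surface, where CD8 T cells read them and natural killer cells sense their loss. The proteasome cuts the peptides, TAP pumps them into the endoplasmic reticulum, and tapasin (the product of TAPBP) helps to load them. Heavy chains reach the surface mainly together with B2M. Interferons raise transcription of most of these genes, through response elements and an enhanceosome of RFX, CREB and NF-Y proteins that NLRC5 joins. Loss of B2M, TAP or heavy chain expression is a known route of immune escape in carcinomas.

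Promoter sequence is shown for the 2 classical heavy chains, which both peaked in T2.5 and T20, and for B2M, which was highest in T2.5 and T40. The stretches (RefSeq, GRCh38.p14) begin 250 bases before the RefSeq gene start and end at the GENCODE 29 start, which leaves out the last 9 bases before the RefSeq start of HLA-B, 38 of HLA-C and 30 of B2M: HLA-B at chr6:31357189-31357429 and HLA-C at chr6:31272131-31272342, both on the minus strand of chromosome 6, and B2M at chr15:44711267-44711486 on the plus strand of chromosome 15. Each is written 5′ to 3′ in the direction of the gene. Capitals mark matches, on either strand, to GAAANNGAA or GAANNGAAA (cores of an interferon-stimulated response element), GGGNNTTCC (NF-kB like), TGACG (part of a cyclic AMP response element) and CCAAT (the NF-Y motif). Matches that overlap run together.
HLA-B: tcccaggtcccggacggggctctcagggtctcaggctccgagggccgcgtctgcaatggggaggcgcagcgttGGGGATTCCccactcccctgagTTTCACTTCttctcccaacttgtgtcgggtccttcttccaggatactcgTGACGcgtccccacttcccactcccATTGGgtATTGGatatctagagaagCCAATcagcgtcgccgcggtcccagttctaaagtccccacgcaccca
HLA-C: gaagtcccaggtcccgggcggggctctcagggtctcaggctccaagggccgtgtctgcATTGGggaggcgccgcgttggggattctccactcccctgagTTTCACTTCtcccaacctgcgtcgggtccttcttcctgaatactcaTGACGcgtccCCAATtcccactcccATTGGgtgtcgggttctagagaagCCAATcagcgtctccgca
B2M: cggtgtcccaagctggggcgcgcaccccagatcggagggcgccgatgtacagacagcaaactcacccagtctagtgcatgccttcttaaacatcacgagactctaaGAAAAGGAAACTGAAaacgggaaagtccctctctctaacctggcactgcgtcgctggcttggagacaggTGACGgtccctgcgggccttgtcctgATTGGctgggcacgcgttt

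Positions below are counted back from the RefSeq start. Over 250 bases before it, HLA-B and HLA-C were identical at 91.9% of 246 aligned bases. Both hold GAANNGAAA, at 155 to 147 bases before the start in HLA-B and at 151 to 143 in HLA-C. Both hold TGACG as well, at 106 to 102 and at 105 to 101. B2M holds 2 overlapping copies of GAAANNGAA between 144 and 130 bases before its start, with TGACG at 75 to 71. These letters are common: among 35116 promoter windows of the same length, 6.88% hold GAAANNGAA, 6.56% GAANNGAAA, 21.2% TGACG, 32.0% CCAAT and 5.78% GGGNNTTCC. GAAANNGAA was also found for HLA-F, TAP1, TAP2 and TAPBP, and a window was at hand for 8 of the 9 genes. A match describes the sequence and is not evidence of binding.

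Libraries held 1976069 to 9343704 UMIs (molecular identifiers, each counting 1 captured transcript) from 726 to 2645 cells, with a median of 1145 to 2974 UMIs per cell. Of 17195 cell barcodes, 970 (5.64%) occurred in more than 1 library. The epithelial keratins KRT8 and KRT18 and the Müllerian factor PAX8 were counted in every population, while EPCAM was at 0 to 5.17 CPM and KRT19 at 0 in T160 and T320; the 5 epithelial markers with a row summed to 457 CPM (a gene's UMIs scaled to the UMI total of its library) in T160 and up to 2383 in T2.5. Of 11 leukocyte markers only CD68, also made by many other cells, had a row, at 0 in C and 43.9 CPM in T320. The fibroblast markers COL1A1 and PDGFRB summed to 5.24 CPM in C, 684 in T10 and 0 in T160 and T320. The part of these markers in the results was not tested. In each library a gene was either listed at 0 throughout or had UMIs in at least 0.957% to 0.995% of cells, so a 0 is no measured absence. In summed counts, fewer expressing cells and less RNA per cell cannot be told apart.

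The classical heavy chain HLA-B, which presents peptides to CD8 T cells, was lowest in the untreated population. Its level was 137 CPM in C, 375 (T1), 656 (T2.5), 270 (T5), 301 (T10), 510 (T20), 412 (T40), 430 (T80), 282 (T160) and 453 (T320). All 9 treated libraries lay above C, with peaks at T2.5 and T20 and low points at T5 and T160. Relative to C, HLA-B was 4.78-fold higher in T2.5 (95% counting interval 4.46 to 5.13) and 3.30-fold higher in T320 (3.05 to 3.57). The smallest ratio was 1.97-fold, in T5 (1.77 to 2.18). Neighbours in the order of levels whose intervals overlapped were T320, T80 and T40, and T10, T160 and T5. Intervals here and below are exact Poisson intervals and cover counting error only. HLA-B lies on chromosome 6 (31269491 to 31357188, GRCh38, protein coding).

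HLA-C, the other classical heavy chain in the list and a main ligand of inhibitory receptors on natural killer cells, had its peaks and its early low point in the same populations, but parted from HLA-B at the upper doses. It was 66.9 CPM in C, 185 (T1), 354 (T2.5), 135 (T5), 151 (T10), 316 (T20), 208 (T40), 139 (T80), 76.6 (T160) and 184 (T320). T2.5 and T20 were again the 2 highest libraries. From T40 to T80, HLA-C was 1.5-fold lower (1.37 to 1.63), while HLA-B was level, at 1.05-fold (0.989 to 1.1). T160 was 1.15-fold above C (1.02 to 1.28), a difference of 0.17, and their level intervals overlapped. That difference was -0.06 with TMM scaling (trimmed mean of M values), which moved the median of all genes in T160 by -0.32, and -0.11 with listed cells only, so its direction depends on the processing. In T2.5 the ratio to C was 5.28 (4.79 to 5.84) and in T320 it was 2.76 (2.45 to 3.10). HLA-B and HLA-C share 13.8% of the 31-base words in the last 500 bases of their transcripts, and their GENCODE 29 gene models overlap on the same strand. Reads could therefore be split between them, and the sources used here do not say how such reads were counted. HLA-C lies on chromosome 6 (31268749 to 31272130).

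HLA-E, a non-classical heavy chain that displays leader peptides of other heavy chains to the natural killer receptor NKG2A, separated C from the rest more cleanly. Its level was 25.5 CPM in C, 66.9 (T1), 76.5 (T2.5), 62.2 (T5), 77.1 (T10), 103 (T20), 95.1 (T40), 91.6 (T80), 90.2 (T160) and 103 (T320). In the order of levels, each neighbouring pair among the 9 treated populations had overlapping intervals, and only C was apart from its neighbour. The treated populations were not all alike, however. T5 (51.7 to 74.3) and T1 (60.1 to 74.2) lay below T20 (93.1 to 113) and T320 (91.5 to 116), with intervals that did not overlap. The ratio to C ran from 2.44 in T5 (1.95 to 3.05) to 4.04 in T320 (3.39 to 4.82). None of its last 31-base words occurs in a transcript of another gene, so HLA-E lacked the shared words found between HLA-B and HLA-C. Only the ends of reference transcripts were compared. Reads shared elsewhere, or through the HLA alleles of this cell line, were not tested. HLA-E lies on chromosome 6 (30489467 to 30494205).

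HLA-F, a non-classical heavy chain of mainly intracellular location, was near the limit of listing. It was listed at 0 in C, T5, T160 and T320 and at 4.39 to 8.54 CPM in the other 6 populations, from 16 to 41 UMIs each. No fold is given against libraries that list it at 0. It lies on chromosome 6 (29722775 to 29738528).

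B2M, the light chain shared by all class I molecules, did not share the course of the heavy chains. It stood at 1218 CPM in C, 1210 (T1), 1453 (T2.5), 1215 (T5), 909 (T10), 1164 (T20), 1344 (T40), 886 (T80), 739 (T160) and 839 (T320). C, T5, T1 and T20 had overlapping intervals between neighbours, T2.5 was 1.19-fold above C (1.15 to 1.24), and T160 was 1.65-fold below it (1.59 to 1.70). B2M was found in 72.3% to 87.6% of cells of a library, and none of its last 31-base words is shared with another gene. It lies on chromosome 15 (44711487 to 44718877).

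**Figure D1:**
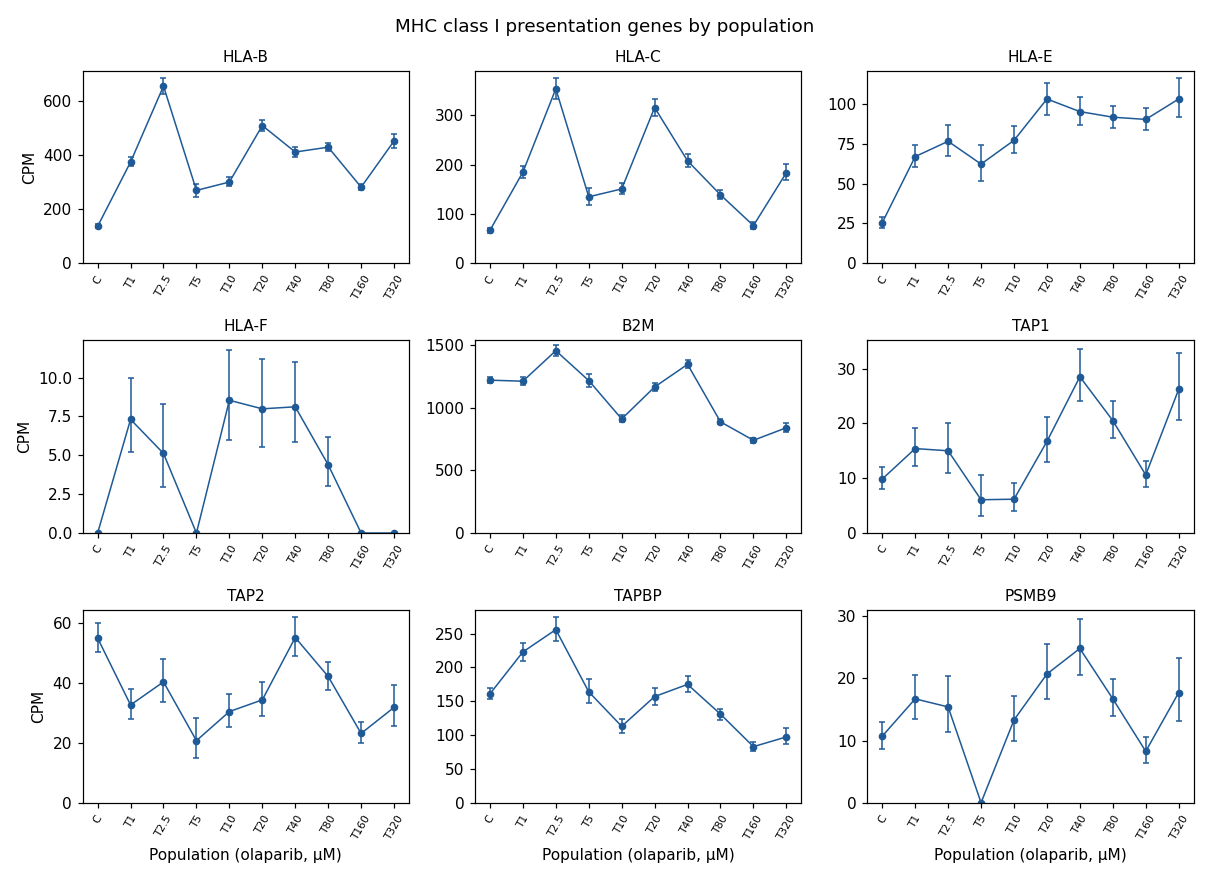
Level of each of the 9 genes in CPM (vertical axis, from 0, scaled per gene) in the 10 populations in order of olaparib dose; points are single libraries and bars are 95% Poisson intervals, not drawn where a gene is listed at 0. HLA-B and HLA-E are lowest in C, at 137 and 25.5 CPM, whereas B2M is highest in T2.5 and lowest in T160.

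TAPBP, whose product tapasin bridges TAP and the empty heavy chain, was 161 CPM in C, 223 (T1), 256 (T2.5), 164 (T5), 113 (T10), 157 (T20), 175 (T40), 131 (T80), 82.9 (T160) and 97.3 (T320). It was highest at T1 and T2.5 and lowest at the 2 top doses. T2.5 lay 1.59-fold above C (1.46 to 1.73), T160 1.95-fold below it (1.77 to 2.14) and T320 1.66-fold below it (1.46 to 1.89). TAPBP lies on chromosome 6 (33299694 to 33314387).

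The transporter subunits, which work only as a pair, did not keep the same order of levels. In C, TAP2 ranked 2 and TAP1 ranked 8 among the 10 populations, with TAP1 lower still in T10 and T5. In T320, TAP1 ranked 2 and TAP2 ranked 7. TAP1 stood at 9.85 CPM in C, 15.4 (T1), 15.0 (T2.5), 6.07 (T5), 6.17 (T10), 16.7 (T20), 28.5 (T40), 20.5 (T80), 10.6 (T160) and 26.2 (T320). TAP2 stood at 54.9 in C, 32.6 (T1), 40.3 (T2.5), 20.7 (T5), 30.4 (T10), 34.3 (T20), 55.1 (T40), 42.1 (T80), 23.1 (T160) and 31.8 (T320). Among treated populations both were highest in T40 and lower in T5 and T160. From T80 to T160 TAP1 was 1.93-fold and TAP2 1.82-fold lower, and from T20 to T40 they were 1.71-fold and 1.6-fold higher. TAP1 in T320 was 2.66-fold above C (1.93 to 3.65), and TAP2 was 1.72-fold below it (1.38 to 2.18). The TAP2 value in C depended on how cells were weighted: in cells thinned to 1000 UMIs each, it was found in 3.24% of cells in C and 2.57% in T320, with overlapping intervals (2.40% to 4.28% and 1.71% to 3.69%). TAP1 (32845209 to 32853978) and TAP2 (32821833 to 32838780) lie on chromosome 6.

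PSMB9, the interferon-inducible subunit that replaces a constitutive one in the immunoproteasome, had few counts. It was 10.7 CPM in C, 16.7 (T1), 15.4 (T2.5), 0 (T5), 13.3 (T10), 20.7 (T20), 24.8 (T40), 16.7 (T80), 8.26 (T160) and 17.7 (T320). T40 was 2.31-fold above C (1.76 to 3.04). PSMB9 (32844136 to 32859585, chromosome 6) and TAP1 overlap on opposite strands in GENCODE 29, and the sources used here do not say whether counting used strand, so reads of these 2 genes cannot be told apart with certainty.

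The comparison with untreated cells asked which of these genes differed at least 2-fold, on the scale of log2(CPM + 10), among genes that reached 50 CPM in C or in the other population. With 1 library per population there is no test. Of the 9 genes, 6 reached that level, and HLA-F, TAP1 and PSMB9 did not. HLA-E did so only through the treated populations, and TAP2 only through C and T40. In T1, 3 of the 6 (HLA-B, HLA-C and HLA-E) were higher and 0 lower, where 7.57% of 4186 measured genes were higher and 4.83% lower. In T2.5 the same 3 were higher (HLA-B with a difference of 2.18, HLA-C with 2.24 and HLA-E with 1.29) and 0 lower, where 4.55% of 4131 genes were higher and 2.37% lower. T5 had 1 higher (HLA-E with 1.03) and 1 lower (TAP2 with -1.08), against 7.87% and 4.72% of 4219 genes. TAP2 was measured there only through C, at 54.9 CPM against 20.7 in T5. In cells thinned to 1000 UMIs its difference was -0.71, which is not a 2-fold call.

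In T10, 3 were higher and 0 lower, against 13.0% and 7.17% of 4461 genes. In T20, 3 were higher and 0 lower, against 6.67% and 7.29% of 4140 genes. In T40, 3 were higher and 0 lower, against 8.88% and 8.76% of 4234 genes. The 3 were HLA-B, HLA-C and HLA-E in each of these populations.

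In T80, 2 of 6 were higher (HLA-B with 1.58 and HLA-E with 1.52, while HLA-C stood at 0.95) and 0 lower, against 9.25% and 13.0% of 4206 genes. T160 had 1 higher (HLA-E with 1.5, while HLA-B stood at 0.99) and 0 lower, against 13.4% and 11% of 4590 genes. In T320, 3 of 6 were higher (HLA-B with 1.65, HLA-C with 1.34 and HLA-E with 1.67) and 0 lower, against 15.4% and 11.6% of 4617 genes.

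The median of the 6 was 0.78 (T1), 0.96 (T2.5), 0.47 (T5), 0.33 (T10), 0.81 (T20), 0.82 (T40), 0.34 (T80), -0.27 (T160) and 0.40 (T320). T160 was the only population below 0, while the median of all measured genes lay between -0.13 and 0.13 throughout. All these contrasts share the library C, so a peculiarity of C would enter each of them. Scaling by TMM moved the median of all genes in T320 by -0.34 and gave 1.38 for HLA-B, 1.08 for HLA-C, 1.44 for HLA-E, -0.81 for B2M and -0.93 for TAPBP. With only the cells that the authors' table of states lists, HLA-E in T2.5 (0.94) and HLA-C in T320 (0.94) were no longer 2-fold higher, and TAPBP was lower in T320 (-1.30). With 50 CPM added in place of 10, HLA-E was no longer 2-fold higher in T2.5 (0.74) or T80 (0.91).

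**Figure D2:**
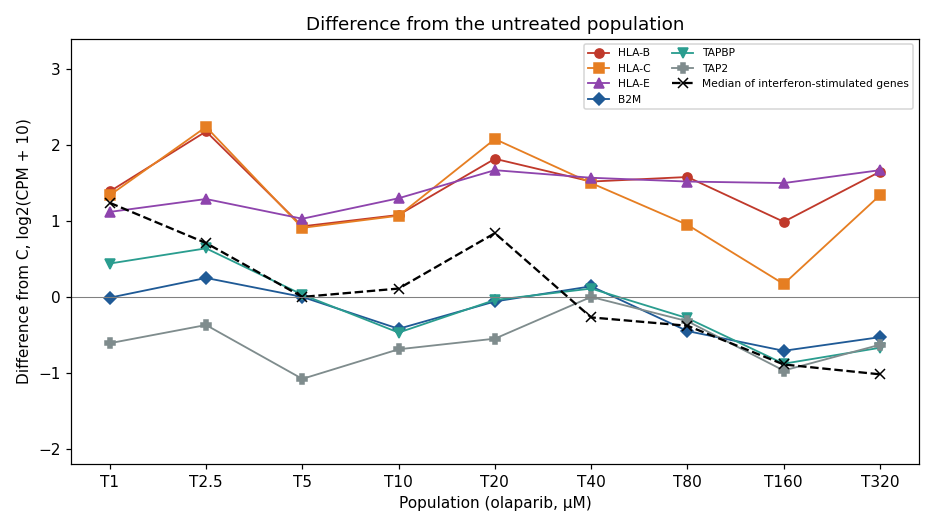
Difference from C in log2(CPM + 10) (vertical axis) for 6 of the genes and, dashed, the median over the same 27 interferon-stimulated genes in every population, in the 9 treated populations by dose. HLA-B and HLA-E stay above 0 throughout, with HLA-E at 1.67 in T320, while the dashed line is at -1.02 there.

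Shares of cells were set beside the summed levels. After each cell was thinned to 1000 UMIs, HLA-B was found in 11.8% of cells in C (95% exact binomial interval 10.2% to 13.5%), in 42.2% in T2.5 (39.1% to 45.5%) and in 33.5% in T320 (30.7% to 36.4%). Without thinning the shares were 30.4%, 51.4% and 51.0%, at median depths of 2247, 1145 and 1851 UMIs per cell. For HLA-E the thinned shares were 2.23% in C (1.54% to 3.12%), 8.13% in T2.5 (6.47% to 10.1%) and 9.72% in T320 (8.02% to 11.6%), against 11%, 12% and 18.2% unthinned. B2M was found in 67.6% of thinned cells in C (65.1% to 69.9%) and 53.6% in T320 (50.6% to 56.6%). Thinning left out 365 of 1845 cells in C, 614 of 1561 in T2.5 and 243 of 1334 in T320, all with fewer UMIs. The culture holds no cell type without class I genes in which free RNA could be gauged.

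A ratio to B2M within each library does not depend on the scaling between libraries. HLA-B had 11.3 UMIs per 100 B2M UMIs in C (10.6 to 11.9), 31 (T1), 45.2 (T2.5), 22.2 (T5), 33.1 (T10), 43.8 (T20), 30.6 (T40), 48.6 (T80), 38.2 (T160) and 54.0 (T320) (50.4 to 57.8). C was the lowest library and T320 the highest, although its interval overlapped that of T80 (46.6 to 50.7). In CPM, HLA-B was highest in T2.5, at 656 against 453 in T320, where B2M was 1.45-fold below C (1.39 to 1.52). For HLA-E the ratio was 2.09 in C (1.83 to 2.38), 5.12 to 5.52 in T1, T2.5 and T5, 7.07 to 10.3 from T10 to T80, and 12.2 and 12.3 in T160 and T320. TAPBP per 100 B2M stayed between 11.2 and 18.4. The 3 heavy chains HLA-B, HLA-C and HLA-E together had 18.9 UMIs per 100 B2M UMIs in C, and between 38.4 (T5) and 88.2 (T320) in treated populations.

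**Figure D3:**
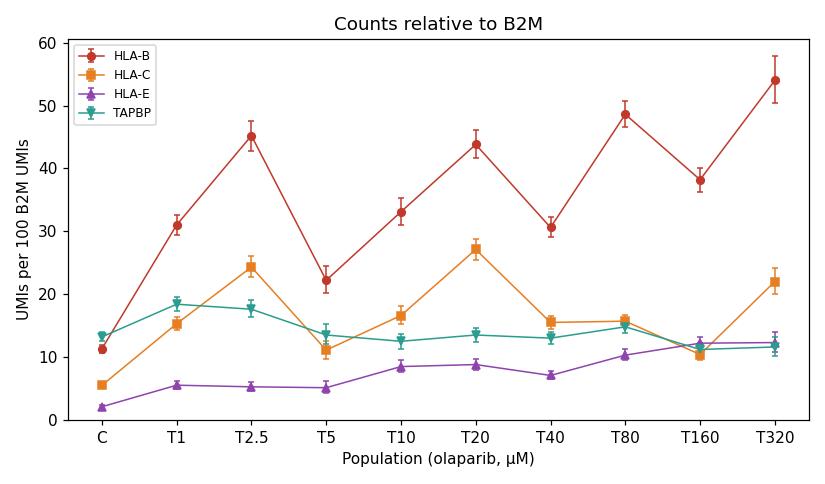
UMIs of HLA-B, HLA-C, HLA-E and TAPBP per 100 UMIs of B2M in the same library (vertical axis, from 0) in the 10 populations by dose; bars are 95% counting intervals. HLA-B goes from 11.3 in C to 54.0 in T320 and HLA-E from 2.09 to 12.3, while TAPBP stays between 11.2 and 18.4.

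A slope per step of the escalation was tested for all 11387 genes with enough counts, with edgeR (quasi-likelihood F test, Benjamini-Hochberg adjusted p). Of the 9 genes, 0 rose and 1 fell (11.1%), where 8.03% of all tested genes rose and 8.99% fell, so the share is near the background. With scaling to library totals 1255 genes rose and 755 fell, against 914 and 1024 here. At an unadjusted p under 0.05, 1 rose (HLA-E) and 2 fell (B2M and TAPBP). TAPBP fell by 0.145 on the log2 scale per step (adjusted p = 0.0415). That call was lost in 7 of the 10 fits that left out 1 population, with adjusted p = 0.0934 without T1, 0.0961 without T2.5, 0.0576 without T5, 0.0524 without T20, 0.0595 without T80, 0.111 without T160 and 0.143 without T320, and over C to T80 it was 0.378. HLA-E had a slope of 0.117 (adjusted p = 0.0962), or 0.060 (0.232) without C, and B2M one of -0.094 (0.0989). By DESeq2, HLA-E (adjusted p = 0.0287) passed as rising and B2M (0.0345) as falling, and by limma-voom HLA-E (0.0473) passed as rising; TAPBP passed as falling by both (0.00416 and 0.0268). HLA-B (0.811) and HLA-C (0.786) had slopes of 0.027 and -0.039. The populations are steps of 1 lineage and not independent, which these p-values do not take into account.

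The step from T80 to T160 was read with care, because HLA transcripts resemble each other. HLA-B was 1.52-fold lower in T160 (1.44 to 1.61) and HLA-C 1.81-fold (1.64 to 2.01). Genes of the list with no shared 31-base words at their transcript ends were lower too. The ratio was 1.58 for TAPBP (1.43 to 1.75) and 1.93 for TAP1 (1.46 to 2.55). For TAP2 it was 1.82 (1.51 to 2.21) and for PSMB9 2.03 (1.49 to 2.79). The gene models of TAP1 and PSMB9 overlap on opposite strands. That of TAP2 overlaps AL669918.1 on the same strand over 16948 bases. The part of shared reads in these drops was not tested. HLA-E differed by 1.01-fold (0.912 to 1.13) and B2M by 1.2-fold (1.16 to 1.24), and the median of 4284 measured genes was 0.22 higher in T160 on the log2 scale. In T320, HLA-C was 2.41-fold higher than in T160 (2.13 to 2.71), and so were TAP1 2.46-fold (1.77 to 3.42), PSMB9 2.14-fold (1.45 to 3.15) and HLA-B 1.60-fold (1.49 to 1.72).

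The authors' table assigns 8240 of the 18209 cells to a state, C or S1 to S5, which allows comparisons inside a library. States were assigned on these cells, so a state against another is a description. In T2.5, HLA-B stood at 815 CPM in S1 (769 to 863; 626 cells) and 250 in S2 (200 to 309; 134 cells), a ratio of 3.26 (2.62 to 4.11). HLA-C was 2.77-fold higher in S1 (2.09 to 3.74) and B2M 1.77-fold (1.58 to 2), while HLA-E differed by 1.40-fold with an interval that includes 1 (0.869 to 2.38). In T5 the S1 cells were again higher for HLA-B, at 408 against 242 CPM. S2 cells had a median of 1554 UMIs in T2.5 against 1313 for S1.

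At 10 and 20 µM the S4 cells held the most HLA-B. In T10 it was 674 CPM in S4 (196 cells), 335 in S3 (146) and 216 in S2 (688), and S4 was 3.12-fold above S2 (2.66 to 3.67). In T20 the levels were 893 in S4 (74 cells), 511 in S3 (149) and 531 in S2 (417), with S4 1.68-fold above S2 (1.44 to 1.95). HLA-E showed less of this: S4 against S2 was 1.23-fold in T10 (0.861 to 1.73) and 1.01-fold in T20 (0.662 to 1.49). A state name did not fix the level, since S2 cells held 216 CPM of HLA-B in T10 and 531 in T20, and S4 cells held 893 in T20, 498 in T40 and 439 in T80.

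B2M was lowest in S3 in each of the 4 populations with S3 cells, although its interval overlapped that of S2 in T10. It stood at 739 CPM in S3 against 871 in S2 and 1332 in S4 in T10, at 722 against 1364 and 1559 in T20, at 1069 against 1521 in S4 in T40, and at 544 against 864 in T80. In T20, S4 was 2.16-fold above S3 (1.87 to 2.50). S3 cells therefore had the highest heavy chain counts relative to B2M in T20, with 136 UMIs of HLA-B, HLA-C and HLA-E per 100 of B2M, beside 71.4 in S2 and 101 in S4. In T80 these ratios were 104 in S3 (72 cells) and 79.6 in S4. In T160 and T320 all listed cells were S5, with HLA-B at 306 and 456 CPM and HLA-E at 101 and 109.

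**Figure D4:**
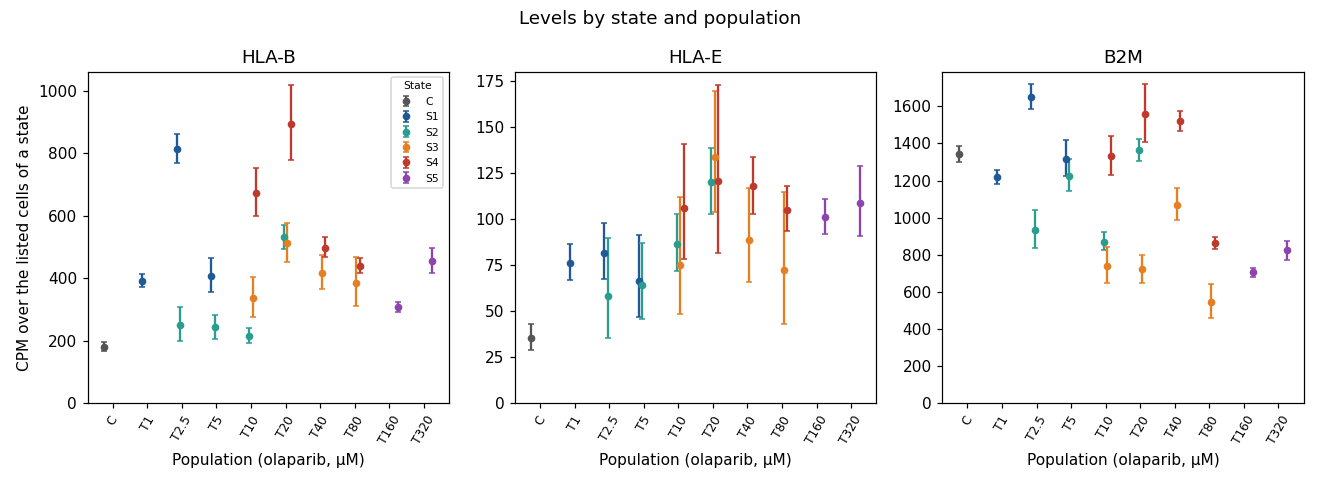
CPM (vertical axis, from 0) of HLA-B, HLA-E and B2M over the listed cells of each state, by population in order of dose; colours are states and bars are 95% Poisson intervals. HLA-B is 815 in S1 and 250 in S2 of T2.5 and 674 in S4 and 216 in S2 of T10, and B2M is lowest in S3 within T10, T20, T40 and T80.

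Interferon-stimulated genes, which share response elements with class I genes, were set beside the list. The median difference from C over the 27 of them with enough counts for the slope test, the same genes in every population, was 1.24 (T1), 0.71 (T2.5), 0.00 (T5), 0.11 (T10), 0.84 (T20), -0.27 (T40), -0.38 (T80), -0.89 (T160) and -1.02 (T320). It was highest in T1, T20 and T2.5 and below 0 from T40 on, while the median of all 11387 genes so tested lay between 0.00 and 0.18. By edgeR's quasi-likelihood slope test 12 of 27 fell and 0 rose, where 8.99% of all tested genes fell and 8.03% rose. Over C to T80, 2 of 27 fell and 0 rose, where 517 of 11156 tested genes fell and 410 rose. The list was chosen with earlier results known. The steepest were XAF1 (-1.55 per step, adjusted p = 0.0298; listed at 0 in 8 populations), IFI27, a mitochondrial interferon product (-1.02, 0.00987), IFI6, an inhibitor of apoptosis (-0.75, 0.0224; 123 CPM in C, 1668 in T2.5 and 21.2 in T320) and MX1, an antiviral GTPase (-0.62, 0.0137). These contrasts use the same library C as those of the class I genes. Within libraries, they summed to 9394 CPM in S1 and 5870 in S2 of T2.5 and to 5399 in S1 and 4068 in S2 of T5, with HLA-B higher in S1 in both. In T10 the sums were 3227 in S2, 4437 in S3 and 4378 in S4, and in T20 they were 5634, 5533 and 5654, with HLA-B highest in S4 in both. Such sums, unlike the medians above, rest largely on IFITM3 and IFITM2. Over whole libraries these held 1122 and 553 of 3293 CPM in T10, and 1703 and 617 of 5147 in T20.

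Regulators of class I genes were read from the same slope test (edgeR, Benjamini-Hochberg adjusted p), and 3 that fell are given here. IRF1, a transcription factor of class I promoters, went from 35.1 CPM in C to 18.4 in T320 (adjusted p = 0.0383), with 71.6 in T1. NFYC, a subunit of the CCAAT-binding factor, went from 72.5 to 43.2 (0.0092), and NFKB1 from 102 to 32.6 (0.0202). Among 17 tested further genes of the pathway, 2 rose and 0 fell, where 8.03% of all tested genes rose and 8.99% fell. FCGRT, the neonatal Fc receptor, which also pairs with B2M, rose, with 13.8 CPM in C, 115 at the T80 step and 84.9 at T320 (0.0022). MICA, a stress ligand of the natural killer receptor NKG2D, rose from 30.2 to 60.5 (0.0218). Of 3 tested class II genes, 0 rose and 0 fell.

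The genes whose levels across the 10 populations most resembled the mean course of the 9 genes were found among 5509 genes by Pearson's r of log2(CPM + 10). They were the intracellular channel protein CLIC1 (r = 0.868), which is encoded in the same region of chromosome 6, PTMS (0.853), the apoptosis effector BAX (0.816), AKT1S1 (0.804), the glucosidase subunit GANAB (0.776) and the protease inhibitor CST3 (0.775). CLIC1 stood at 455 CPM in C, 667 in T40, 324 in T160 and 438 in T320. Over C to T80 alone, the list was COPE (0.878), TKT (0.871), PTOV1 (0.867), PFDN6 (0.857), PTMS (0.845) and RMND5B (0.843), so PTMS alone was in both. The 10 values share the libraries and their depths. Of the 9 genes themselves, each of which enters that mean, HLA-C was closest (r = 0.86) and HLA-E furthest (0.45).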

How the data were processed

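Count data came from 10 inDrop libraries of Kuramochi cells, 1 for each population. The deposited matrix holds UMI counts per gene and cell, whole numbers with no normalization by the authors. The deposited metadata table gives UMI and gene counts per cell, the mitochondrial share as a fraction and a state for 8240 of 18209 cells; 918 of them carry another name there and were matched by population and barcode, and all matched cells had identical UMI totals. Genome builds hg38 and GRCh38 and Seurat 2.3.2 are named per the submitters' processing notes. An aligner, a counting tool, an annotation or a filter on cells was not given in the sources used here. No cell was removed and no doublet caller was run.

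Counts were summed over cells and scaled to CPM. Differences are of log2(CPM + 10), for genes with at least 100 UMIs in all and 50 CPM in a population compared. The slope (steps 0 to 9, TMM scaling, 8 residual degrees of freedom) was fitted with edgeR 4.0.16, with DESeq2 1.42.0 and limma 3.58.1 as alternatives, after a test on simulated data. Intervals are 95% exact Poisson or binomial intervals. Shared 31-base words were counted in GENCODE 29 transcripts for 12201 matched genes; promoters came from RefSeq (GRCh38.p14). All 9 list genes are named; of other pathway lists, up to 4 genes per direction past the slope threshold; and the 6 genes most like the mean course. Members and lists were chosen with earlier results of these data known. The motif GAANNGAAA, 1000-UMI equal weighting, the fixed set of interferon-stimulated genes, the contrasts of 6 populations beyond T2.5, T80 and T320, and the choice of promoters printed were added after values were seen. Some members of the pathway lists are not reported here.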

Additional observations from a re-analysis of the deposited data

How the results depend on the processing

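Of 567 differences from C recomputed under 7 alternatives in the 9 treated populations, 0 changed sign after a 2-fold call. Of the 567, 432 moved by less than their counting error and 135 by more. Where either count was 0, as for HLA-F and for PSMB9 in T5, a fixed limit stood in for the counting error. Uncalled differences changed sign in places, such as TAP2, which went from -0.37 to 0.07 in T2.5 and from -0.32 to 0.08 in T80 with cells thinned to 1000 UMIs. That alternative, and the contrasts of populations other than T2.5, T80 and T320, were chosen after seeing the data. Values for HLA-B, HLA-C and HLA-E lay above 0 in 214 of 216 cases (main values included), the exceptions being HLA-C in T160 with TMM scaling (-0.06) and with listed cells only (-0.11). With a pseudocount of 50 CPM the number at least 2-fold higher was 1 in T80 and 0 in T5, T10 and T160, and 0 were lower in T5. With 1 CPM, T160 had 2 higher and 1 lower. With TMM scaling the number higher was 0 in T5 and 1 in T10, and 2 were lower in T160. With listed cells only the number higher was 1 in T1 and T10 and 0 in T5, and 1 was lower in T160 and in T320. With thinned cells T5 had 3 higher and 0 lower. With no minimum CPM 2 were lower in T5, and with sequence-sharing genes left out 1 was lower in T160. The number with a rising slope was 1 by DESeq2 and by limma-voom, and the number with a falling slope was 2 by DESeq2 and 0 over C to T80; leaving out 1 population each gave 0 to 1 falling.

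Over all genes DESeq2 called 1501 rising and 1694 falling, and C to T80 gave 410 and 517. Fits lacking 1 population gave as few as 488 and 537 (no T320), 595 and 683 (no T80) or 627 and 654 (no T2.5).

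Slopes that did not pass the threshold changed sign in places: HLA-F to 0.122 by limma-voom, and HLA-C to 0.058 and HLA-F to 0.216 over C to T80. Leaving out 1 population gave slopes of -0.038 to 0.084 for HLA-B, -0.117 to 0.025 for HLA-C and -0.317 to 0.046 for HLA-F. The cause was not tested. HLA-F, TAP1 and PSMB9 rest on 0 to 154 UMIs per library, so their depth limits what could be seen.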
